A study of Homo sapiens with 2 samples.

Results

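The genes described here encode 32 subunits of the proteasome: PSMA1 to PSMA7, PSMB1 to PSMB7, PSMC1 to PSMC6, 11 PSMD genes and ADRM1. They were chosen by name as a fixed list of Ensembl gene IDs, and all 32 were present among the 57820 IDs of the table. The data are ribosome footprints from HEK293, an established line of human embryonic kidney cells, in which RNase I trims mRNA down to the stretches shielded by ribosomes. The only group is cells given DMSO vehicle for 12 h with no heat shock, with 1 library from batch 1 (replicate 1) and 1 from batch 2 (replicate 2). Each library came from 2 culture plates. The labels do not say that the plates were independent cultures, so an SD over the 2 libraries may be partly technical. The minocycline arm that the protocol mentions was not analysed here.

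The proteasome degrades proteins that carry ubiquitin chains. Its barrel, the 20S core, is built of rings of alpha subunits, which gate the entrance, and rings of beta subunits, some of which cut peptide bonds inside the chamber. The 19S cap binds ubiquitylated proteins, removes the ubiquitin and feeds the unfolded chain into the core. The base of the cap holds a ring of ATPases (the PSMC genes) together with scaffold subunits and ubiquitin receptors (PSMD1, PSMD2, PSMD4, ADRM1), and the lid (the other PSMD genes on the list) holds the deubiquitinase PSMD14. Because each subunit has a fixed place in the complex, how evenly cells make the subunits is a standing question in the field.

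Replicate 1 held 865838 counts over all IDs and replicate 2 held 611266. Values are given as counts and as CPM, counts per 1000000 counts of the library. Coding length was not used here, so a CPM is a gene's share of the counted fragments. A longer coding sequence collects more fragments at the same ribosome density, and no value below is a density or a number of proteins made. The list pairs each member with its symbol, but other IDs could not be named, so neither the remaining genes of the pathway nor marker genes of HEK293 were examined. Intervals hold only the error of counting. Since PCR copies were not marked as such, fragments may not be separate molecules and the intervals may be too narrow.

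The 32 genes together held 0.489% of all counts in replicate 1, with an exact 95% interval (Clopper-Pearson) of 0.475% to 0.504%, and 0.558% in replicate 2 (0.539% to 0.577%). The mean was 0.524% ± 0.0484 (SD, n = 2). Most members lay close together: 23 of 32 were within 2-fold of the median member, whose mean CPM was 161.2. Above that band stood only the beta subunits PSMB1 and PSMB3, and below it stood PSMA2, PSMA5, PSMA6, PSMC1, PSMC6, PSMD4 and PSMD8. Ranked by mean CPM among all IDs, 17 members were among the 1000 highest and 4 among the 500 highest. Most of the 57820 IDs were empty: 14944 were above 0 in replicate 1 and 13783 in replicate 2.

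**Figure D1:**
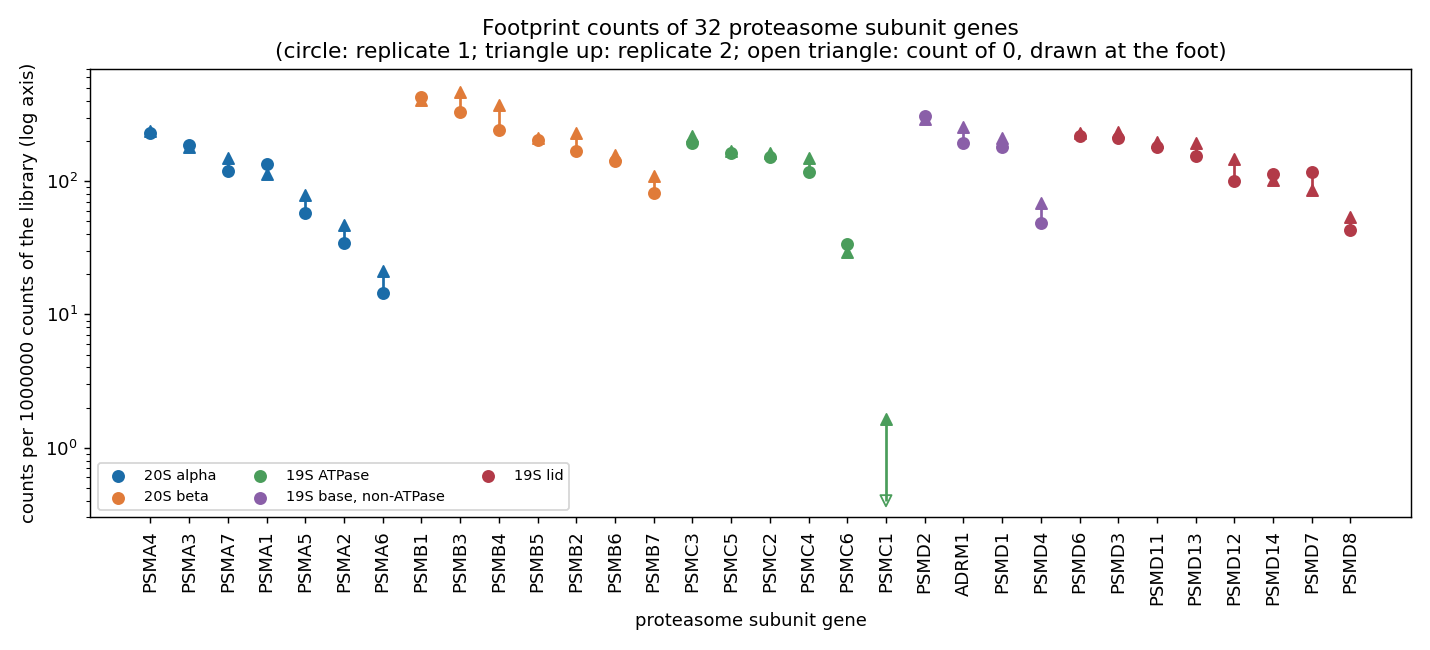
Counts per 1000000 counts of the library (log axis) for each of the 32 genes in replicate 1 (circles) and replicate 2 (triangles), ordered by mean within each class; lines join the 2 libraries. PSMB1 is the highest at a mean of 417.1 CPM, and PSMC1, with 0 and 1 counts, lies far below the 31 other genes.

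Alpha subunits of the core spanned a wide range of counts. PSMA4 (ENSG00000041357), whose tail helps close the gate of the core, was the highest, with 199 counts in replicate 1 and 145 in replicate 2, or 233.5 ± 5.22 CPM (SD, n = 2). PSMA3 (ENSG00000100567) had 161 and 111 counts. PSMA7 had 103 and 91 counts, and PSMA1 had 116.67 and 69.5. These 4 genes all stood above 100 CPM in both libraries, and the remaining alpha genes all stood below it. PSMA5 had 50 and 48 counts, and PSMA2 (ENSG00000106588) had 29.5 and 28.5. PSMA6 (ENSG00000100902) was the lowest alpha gene, with 12.5 and 13 counts or 17.9 ± 4.83 CPM (SD, n = 2). The 7 alpha genes encode related proteins that sit side by side in 1 ring.

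Beta subunits gave the highest counts of the complex. PSMB1 (ENSG00000008018), a beta subunit without a catalytic site, had 371 counts in replicate 1 and 248 in replicate 2, or 417.1 ± 16.1 CPM (SD, n = 2). PSMB3 (ENSG00000108294), also without a catalytic site, had 286 counts in each library, or 330.3 and 467.9 CPM. PSMB1 was thus the higher of the pair in replicate 1 and PSMB3 in replicate 2. PSMB4 had 208 and 226 counts, and PSMB2 had 147 and 140; neither is catalytic.

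The catalytic beta subunits did not stand at the top of their ring. PSMB5 (ENSG00000100804), which carries the chymotrypsin-like activity and is the main target of bortezomib, had 175.5 and 129.5 counts, or 207.3 ± 6.48 CPM (SD, n = 2). PSMB6, the caspase-like subunit, had 122 and 96 counts, or 149.0 ± 11.4 CPM. PSMB7, the trypsin-like subunit, had 70 and 67 counts, or 95.2 ± 20.3 CPM, the lowest of the beta genes. In both libraries the fragment counts fell in the order PSMB5, PSMB6, PSMB7. In replicate 2 the counting intervals of PSMB6 overlapped those of PSMB5 and of PSMB7. The intervals of PSMB5 and PSMB7 did not overlap in either library.

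Of the 6 ATPases, which pull substrates into the core, 4 had a mean CPM from 133.6 (PSMC4) to 206.6 (PSMC3). PSMC3 was the highest, with 168 counts in replicate 1 and 134 in replicate 2, or 206.6 ± 17.8 CPM (SD, n = 2). PSMC5 had 140.5 and 102.5 counts, PSMC2 had 131 and 100, and PSMC4 had 101 and 92. PSMC6 (ENSG00000100519) was lower, with 29 and 18 counts or 31.5 ± 2.86 CPM. PSMC1 (ENSG00000100764) had 0 counts in replicate 1, which allows up to 3 counts or 3.46 CPM (the exact two-sided 95% interval reaches 4.26 CPM), and 1 count in replicate 2, or 1.64 CPM. PSMC1 encodes 1 of the 6 different proteins that form the ATPase ring, and both libraries held almost no counted fragments for it.

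Among the base subunits without ATPase activity, the scaffold PSMD2 (ENSG00000175166) was the highest with 269 and 178 counts, or 300.9 ± 13.8 CPM (SD, n = 2). The ubiquitin receptor ADRM1 had 167 and 155 counts, and the scaffold PSMD1 had 156 and 128. PSMD4 (ENSG00000159352), also a ubiquitin receptor, had 42 counts in each library, or 58.6 ± 14.3 CPM. ADRM1 and PSMD4 thus differed in fragment counts in both libraries, with non-overlapping counting intervals in each.

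Of the 8 lid genes, 4 had a mean CPM from 174.7 (PSMD13) to 223.9 (PSMD6), and the other lid genes were lower. PSMD6 was the highest with 188 and 141 counts, or 223.9 ± 9.57 CPM (SD, n = 2). PSMD3 had 183 and 144 counts, PSMD11 had 155 and 120, and PSMD13 had 134 and 119. PSMD12 had 87 and 90 counts. The deubiquitinase PSMD14 had 98 and 62 counts, and PSMD7, which pairs with it in the lid, had 101.5 and 52.5. These 2 partners stood at 107.3 ± 8.31 and 101.6 ± 22.2 CPM (SD, n = 2 for each), a gap smaller than the SD of PSMD7. PSMD8 (ENSG00000099341) was the lowest lid gene, with 37 and 33 counts or 48.4 ± 7.96 CPM.

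The order of the members was alike in both libraries, but most neighbours in it had overlapping counting intervals. Across the 32 genes, which share their libraries, the CPM of replicate 1 and replicate 2 had a Spearman rho of 0.97. Of 31 pairs of neighbours in the order by mean CPM, 27 had overlapping 95% intervals in both libraries. Sorting by these same values places neighbours close together, and overlap of intervals is not a test of a difference. The exceptions were apart in at least 1 library. PSMB1 with PSMB3, PSMB3 with PSMB4, and PSMD2 with PSMA4 were apart in replicate 1 but overlapped in replicate 2. Only PSMA6 with PSMC1 were apart in both. Among the 31 members above 0 in both libraries, log2 CPM had an SD of 1.08 over genes in replicate 1 and 1.04 in replicate 2. The SD between libraries, pooled over the same genes after scaling by TMM (trimmed mean of M-values, which matches libraries on the bulk of their IDs), was 0.29. The highest of the 31 had 23.4 times the mean CPM of the lowest, PSMA6, and 13.3 times that of the lowest gene when those with non-whole counts were left out.

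The classes were then compared by how they divided the counts of the 32 genes. The 14 genes of the 20S core held 48.4% of these counts in replicate 1 (95% exact Clopper-Pearson interval 46.9 to 49.9) and 49.8% in replicate 2 (48.1 to 51.5). Within the core, the 7 beta genes took 32.5% and 35.0%, and the 7 alpha genes 15.8% and 14.8%. The 6 ATPase genes held 13.4% and 13.1%, the 4 other base genes 15.0% and 14.7%, and the 8 lid genes 23.2% and 22.3%. For each of these 5 classes the intervals of the 2 libraries overlapped. The beta genes held the largest share of the 5 classes in both libraries.

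**Figure D2:**
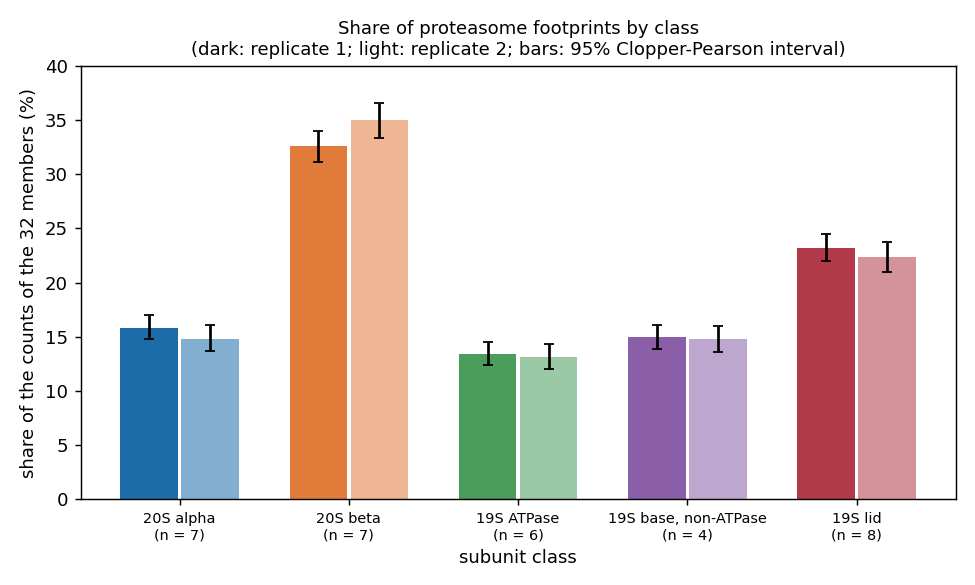
Share of the counts of all 32 genes (%) held by each subunit class in replicate 1 (dark bars) and replicate 2 (light bars), with 95% Clopper-Pearson intervals of counting error. Beta genes took 32.5% and 35.0%, against 15.8% and 14.8% for the same number of alpha genes.

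The classes were also compared by their median gene. Median CPM in the core was 155.3 in replicate 1 and 169.3 in replicate 2. It was 134.0 and 157.1 among ATPases, and 166.9 and 195.5 among the 12 cap genes without ATPase activity. The ratio of ATPase to core medians was 0.895 ± 0.0460 (SD, n = 2), 0.694 when genes with non-whole counts were left out, and 0.970 with PSMC1 left out, a choice made after its counts were seen. The ratio of other cap genes to the core was 1.11 ± 0.0567 (SD, n = 2), and it fell to 0.981 when genes with non-whole counts were left out. The alpha median was 0.542 ± 0.0640 times the beta median (SD, n = 2). The lid median was 0.734 ± 0.00666 times that of the base genes without ATPase activity (SD, n = 2). With other settings the alpha to beta ratio ran from 0.382 to 0.657 and the lid to base ratio from 0.619 to 0.835. Members are not replicates of a class, so no test was run on these ratios, and none of them is per coding length.

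Because PSMC1 was nearly empty, the number of processed or other pseudogenes that RefSeq names after each member (PSMC1P1 and so on) was set beside the counts, after the counts had been seen. RefSeq lists 13 such pseudogenes for PSMC1, 4 each for PSMA6 and PSMD7, and 3 each for PSMA2 and PSMC6. These 5 genes had a median of 31.5 mean CPM and none exceeded the 101.6 CPM of PSMD7. The 13 genes with 1 or 2 named pseudogenes ran from 48.4 CPM (PSMD8) to 399.1 CPM (PSMB3), with a median of 124.2. The 14 genes with 0 ran from 133.6 CPM (PSMC4) to 417.1 CPM (PSMB1), with a median of 203.3. By the mean of the libraries, the genes without a named pseudogene all lay above the 5 with the most. In replicate 1 alone PSMC4 (116.7 CPM) lay just below PSMD7 (117.2 CPM).

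Over the 32 members, mean CPM and the number of pseudogenes had a Spearman rho of -0.64, and -0.60 without PSMC1. The points share both libraries, and coding length was not accounted for. How the authors treated fragments that match several places is not given in the sources used here, and whether copies of these genes lowered their counts was not tested. Of the genes with 1 named pseudogene, the lowest were PSMA5, PSMD4 and PSMD8 at 68.1, 58.6 and 48.4 CPM. The lowest gene with 0 was PSMC4 at 133.6 CPM.

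**Figure D3:**
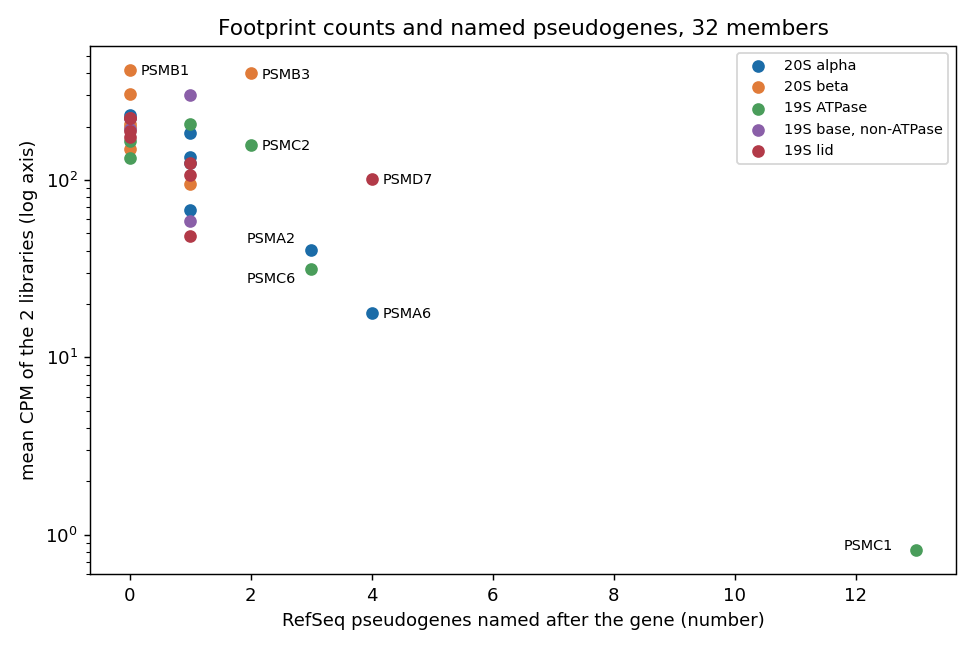
Mean CPM of the 2 libraries (log axis) against the number of pseudogenes RefSeq names after each gene, for the 32 members coloured by class. PSMC1, with 13, is the lowest gene, and all genes with 0 lie at or above the 133.6 CPM of PSMC4.

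Counts more than 0.001 away from a whole number occurred in 6 members: PSMA1, PSMA2, PSMA6, PSMB5, PSMC5 and PSMD7. That is 19.4% of the 31 members with at least 20 summed counts, and 20.2% of all 6953 IDs with as many had such counts. Of the 6, PSMA1, PSMA2, PSMA6 and PSMD7 have at least 1 named pseudogene. Among all 32 members, 13 have 1 or 2, 5 have 3 or more and 14 have 0. By RefSeq spans, 13 of the 32 members overlap another gene, among them 3 of these 6. The span of PSMA6 overlaps the readthrough transcript PRORP-PSMA6, that of PSMC5 overlaps FTSJ3 and that of PSMA2 a pseudogene. PSMC1 overlaps the protein-coding gene NRDE2. PSMA3 overlaps the antisense RNA PSMA3-AS1, and PSMD6 overlaps PSMD6-AS1 and PSMD6-AS2. The strand setting of the counting is not given in the sources used here, so fragments of such partners cannot be told apart from those of the members, and the split of non-whole counts is uncertain.

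The libraries were next compared gene by gene, as the ratio of replicate 2 to replicate 1 after TMM scaling. With 1 library per batch, batch and replicate cannot be told apart, and the comparison is of these 2 libraries. The counts of all 32 genes summed were higher in replicate 2, with a log2 ratio of 0.30 (95% exact binomial interval 0.23 to 0.36), and of 0.19 when libraries were scaled by their totals. In 25 members the 2 libraries summed to 100 counts or more, and 22 of these were higher in replicate 2, against 43.0% of all 2239 IDs with as many counts and above 0 in both libraries. Their median log2 ratio was 0.27, and that of all those IDs was -0.07. Scaled by library totals, 19 of the 25 were higher in replicate 2, against 33.6% of all.

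No member with at least 100 summed counts differed by more than 2-fold between the libraries. Of the 25, 3 were beyond 1.5-fold, against 20.4% of all IDs tested, and 0 were beyond 2-fold, against 5.18%. PSMB4, which had 240.2 CPM in replicate 1 and 369.7 in replicate 2, was furthest apart with a log2 ratio of 0.73 (95% interval 0.45 to 1.01). PSMD12 had 100.5 and 147.2 CPM and a log2 ratio of 0.66 (0.22 to 1.10), and PSMB3 a log2 ratio of 0.61 (0.37 to 0.85). All 3 were higher in replicate 2. When libraries were scaled by their totals, PSMB4 alone of the 25 was beyond 1.5-fold, against 22.6% of all IDs tested. Below 100 summed counts, PSMA6 had a log2 ratio of 0.67 (-0.52 to 1.99) and PSMD4 one of 0.61 (-0.04 to 1.26). Both intervals include 0, so no difference was detectable at this depth.

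The members that went the other way were PSMD7, PSMA1, PSMC6 and PSMD14. PSMD7 was lowest, with 117.2 CPM in replicate 1 and 85.9 in replicate 2 and a log2 ratio of -0.34 (-0.87 to 0.14). The intervals of all 4 include 0. By class, the summed beta genes had a log2 ratio of 0.40 (0.29 to 0.51) and the summed alpha genes 0.20 (0.03 to 0.37). The ATPase genes had 0.26 (0.08 to 0.45), the lid genes 0.24 (0.10 to 0.38) and the other base genes 0.28 (0.11 to 0.45). After TMM scaling each of these intervals left out 0. By library totals the log2 ratios were smaller, and only that of the beta genes, 0.29 (0.18 to 0.40), had an interval that left out 0. It was 0.09 (-0.08 to 0.26) for alpha genes. The differences between the classes' ratios were not tested.

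**Figure D4:**
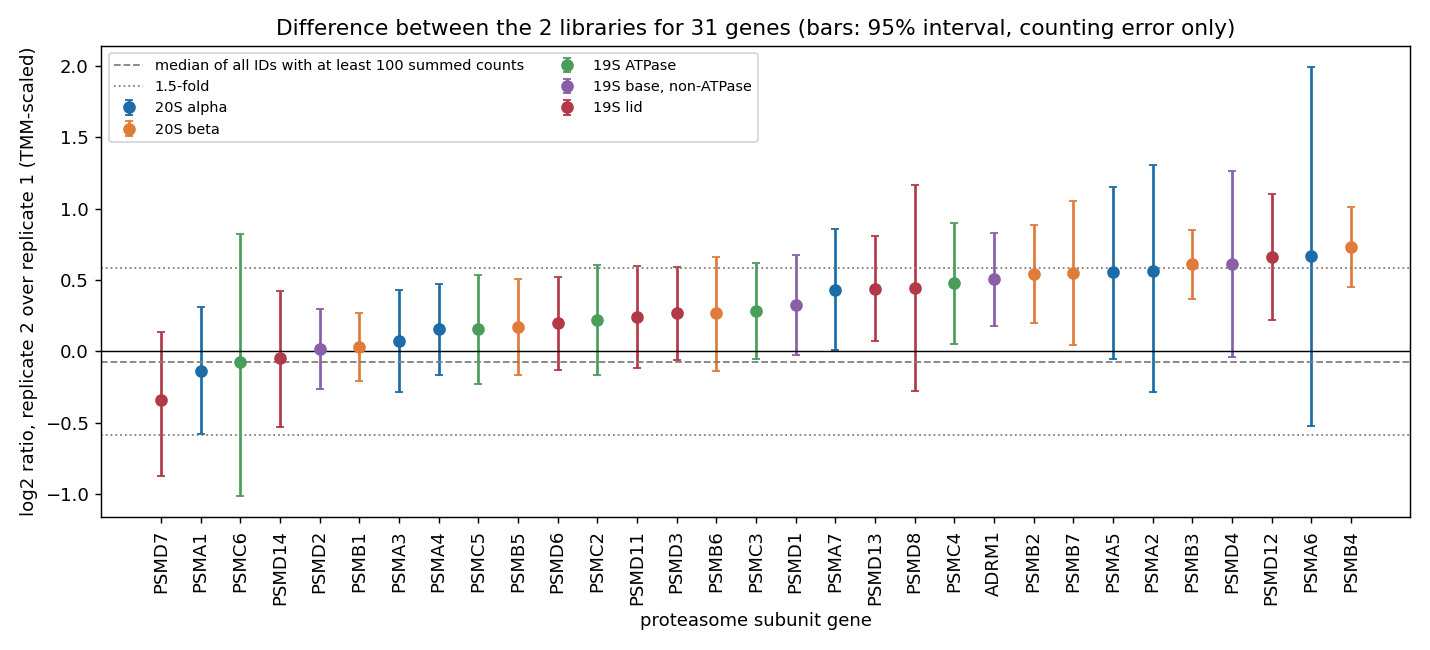
Log2 ratio of replicate 2 over replicate 1 after TMM scaling for the 31 genes above 0 in both libraries, in rising order, with 95% intervals of counting error; dotted lines mark 1.5-fold and the dashed line the median of all IDs with at least 100 summed counts. Of the 31 genes, all with at least 20 summed counts, 27 lie above 0, against 49.5% of all 6946 IDs with as many and above 0 in both libraries. PSMB4 is the highest at 0.73.

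Proteasome genes are known to be induced together by the transcription factor NFE2L1, which binds antioxidant response elements, so shared letters in their promoters are shown as context. RefSeq promoter windows, from 250 bases before to 50 after an annotated gene start (GRCh38.p14, whereas the counts are on hg19), were matched by symbol for 27 members, and not for PSMA7, PSMB1, PSMB6, PSMB7 and PSMD4. The letters TGACNNNGC, a core of such elements, were sought on both strands. They occurred in windows of 8 of the 27 members, or 29.6%, against 16.1% of all 27305 genes with a window and 17.9% of the protein-coding ones. The matches that lie before the gene start are shown with 10 bases on each side, written along the gene's strand, with the match in capitals.
PSMB3, chr17:38752627-38752655, plus strand: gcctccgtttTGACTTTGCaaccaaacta
PSMA4, chr15:78540650-78540678, plus strand: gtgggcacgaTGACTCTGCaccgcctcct
PSMD3, chr17:39980760-39980788, plus strand: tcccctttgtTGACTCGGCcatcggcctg
ADRM1, chr20:62302749-62302777, plus strand: cgctcccctaTGACACAGCaacaataggg
PSMD12, chr17:67366724-67366752, minus strand: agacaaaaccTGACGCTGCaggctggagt
PSMC5, chr17:63827654-63827682, plus strand: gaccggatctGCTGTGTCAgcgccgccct

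In PSMC5 the match is on the opposite strand, so that the capitals read as its reverse complement. The matches of PSMC4 and PSMD1, and another of PSMD3, lie after the gene start and are not shown. The 8 genes with a match ran from 123.9 mean CPM (PSMD12) to 399.1 (PSMB3), with a median of 209.0. The 19 without one ran from PSMC1 to 305.0 CPM (PSMB4), with a median of 157.4, so the ranges overlapped. The letters CCAAT, the core of the NF-Y site, occurred on either strand in windows of 16 of the 27 members, or 59.3%, against 39.7% of all genes and 42.1% of protein-coding ones. No TGACNNNGC match in a member overlapped a CCAAT match. A match is a description of these letters and not a site in use, and footprint counts do not measure a promoter's activity.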

How the data were processed

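Ribosome-protected fragments of 27 to 29 nt were counted per Ensembl gene ID in 2 libraries without rRNA depletion, per the labels. The values are the authors' estimated counts, unscaled and partly not whole, as deposited. Fragments were placed on hg19 (submitters' processing notes). Not given in the sources used here are the aligner, counter, annotation, strand setting and rule for fragments with several matches.

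The members and lists were chosen with earlier results of these data known. Shares and CPM used the sum of all IDs. TMM factors came from edgeR 4.0.16 (R 4.3.3) on counts rounded to whole numbers, for the IDs that reached 20 counts summed over both. Ratios used the deposited values, and their intervals the rounded counts. With 1 group no contrast was tested. Only the TMM scaling and the intervals of the ratios between libraries were tested on simulated data. Those data held random counting error alone, without PCR copies.

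The planned measure, counts per codon, was not computed because protein lengths were not used here; CPM replaced it, also in the rule for genes named in full (the highest and lowest of each class, the catalytic subunits, members beyond 1.5-fold between libraries or with non-whole counts). The lists of other proteasome genes and of marker genes were not applied, since 0 of the 59792 reference genes carry an Ensembl ID. Pseudogenes and overlaps came from RefSeq names (GRCh38.p14). Alternatives were library-total and DESeq2 1.42.0 scaling, a pseudocount of 0.5, other count minimums, and genes or replicates left out. Python 3.11.15, scipy 1.17.1 and pandas 2.3.3 were used.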

Additional observations from a re-analysis of the deposited data

How the results depend on the processing

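No paired analysis was possible because there is only 1 group. Analyses per codon and with an effective length were not run, as protein lengths were not used here. Leaving out PSMC1 or the genes with 3 or more pseudogenes, and the library total without the 2 highest IDs for ratios between libraries, were chosen after seeing the data.

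Against a total without the 2 highest IDs, the members' share was 0.660%; single libraries gave 0.489% to 0.558%. The ATPase to core ratio of medians became 0.694 without genes of non-whole counts and 0.970 without PSMC1 (single libraries 0.862 to 0.928). The ratio of other cap genes to the core became 1.04 by geometric means, 0.981 without non-whole counts and 1.00 without genes of 3 or more pseudogenes (single libraries 1.07 to 1.15), so its side of 1 was not stable. Under the same 3 settings the alpha to beta ratio became 0.382, 0.648 and 0.657 (0.496 to 0.587), and the lid to base ratio 0.810, 0.835 and 0.835 (0.729 to 0.739), or 0.619 without ADRM1 and PSMD4. Both stayed below 1 in each alternative run. Without non-whole counts, the SD of log2 CPM over members was 0.913 (single libraries 1.04 to 1.08) and the highest was 13.3 times the lowest (22.0 to 29.7). The log2 ratio of summed counts was 0.19 by library totals, and 0.29 by totals without the 2 highest IDs. By the latter totals 22 of 25 members were higher in replicate 2, against 42.3% of all IDs tested. Beyond 1.5-fold were 3 members, against 20.2% of all. The median absolute log2 ratio, 0.27 as reported and 0.30 over all IDs tested, was 0.18 by library totals, 0.33 with at least 20 summed counts, 0.29 without non-whole counts and 0.26 without the 2 highest IDs. Members beyond 1.5-fold numbered 1 of 25 by library totals, against 22.6% of all IDs tested. With at least 20 summed counts they numbered 5 of 31, against 37.8% of all IDs. Members among the 1000 highest IDs numbered 15 to 21 in single libraries. The pseudogene rho was -0.60 without PSMC1 (single libraries -0.65 to -0.59). Causes of these shifts were not tested. Depth limits single members: at the 25.5 summed counts of PSMA6, the interval of the log2 ratio ran from -0.52 to 1.99.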
